A study of Mus musculus with 2 samples.

Results

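Sites of open chromatin that lie outside annotated genes, 1 to 10 kb from the nearest annotated start, were examined in the frontal cortex of young mice. The sites were DNase-seq peaks of replicate 1 that overlapped a peak of replicate 2 by at least 1 bp on an autosome. Only peaks with a midpoint outside every annotated gene body (GENCODE vM21, genome build mm10) were kept, with the nearest transcription start site (TSS) more than 1 kb and at most 10 kb away. Of 40822 autosomal shared peaks, 3545 met this rule, or 8.68%. The remaining shared peaks comprised 20225 within 1 kb of a TSS, 1369 in exons, 6656 in introns 1 to 20 kb from a TSS and 2945 in introns farther away, 4495 intergenic sites at 10 to 50 kb and 1587 intergenic sites beyond 50 kb.

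Both libraries came from frontal cortex of male B6CASTF1/J mice, an F1 hybrid of the C57BL/6J and CAST strains, aged 10 days, with no treatment named. They form 1 group of 2 biological replicates, so there is no second condition and no test between conditions. The labels mention 3 males per sample and the same donor entry for both samples, and pooling of tissue is not stated. The spread between the libraries may thus be technical. The tissue is a mixture of neurons, glia and vascular cells, and a weak site in all cells cannot be told apart from a strong site in few of them. In DNase-seq, nuclei are treated with the endonuclease DNase I, and peaks mark stretches that it cuts often. The value of a peak is the highest cleavage density inside it, normalised for depth by the authors and called density below. The lists held 48719 autosomal peaks in replicate 1 and 53079 in replicate 2. Density moved in steps of 0.0107 in replicate 1 and 0.00648 in replicate 2, a ratio of 1.65 in the direction of a deeper replicate 2. The total read depth is unknown. To set the libraries side by side, density was also ranked within each list and given as a percentile.

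Intergenic sites close to a gene start can be proximal enhancers, insulators bound by the zinc finger protein CTCF, or promoters of transcripts that an annotation does not hold. A protein bound to open DNA shields a few bases from DNase I and leaves a footprint, a short gap in cleavage. Enhancers of forebrain neurons are known for binding bHLH factors such as NEUROD2, which read E-box sequences, whereas promoters of widely used genes are rich in CpG dinucleotides and are read by factors such as SP1 and NRF1.

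Printed here are the kinds of site in the set, namely the site with the highest mean percentile, sites with a motif inside footprints, a site in a tested enhancer and a site at a tRNA gene. They are the middle of each peak from the forward strand of GRCm38.p6 (the mm10 assembly, sequence from RefSeq), 5′ to 3′, 220 bases each. The reference letters are those of C57BL/6J, while the mice also carry CAST alleles. Capitals mark bases covered by a footprint in both libraries. Motif positions count from 1 at the 5′ end of the printed run. The tRNA site was chosen after its values were seen.
Trappc9 site (chr15:73067536-73067755): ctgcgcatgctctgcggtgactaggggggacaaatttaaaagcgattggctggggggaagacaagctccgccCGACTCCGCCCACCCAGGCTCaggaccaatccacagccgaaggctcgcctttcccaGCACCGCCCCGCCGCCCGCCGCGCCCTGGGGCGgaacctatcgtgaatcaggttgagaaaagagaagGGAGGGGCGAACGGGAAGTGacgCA
Kcnn1 site (chr8:70865627-70865846): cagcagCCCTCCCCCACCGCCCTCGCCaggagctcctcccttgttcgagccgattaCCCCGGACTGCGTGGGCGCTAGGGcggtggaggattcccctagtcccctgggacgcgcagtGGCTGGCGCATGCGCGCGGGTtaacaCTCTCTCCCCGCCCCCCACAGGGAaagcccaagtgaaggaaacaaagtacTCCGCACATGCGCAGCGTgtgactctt
Tle2 site (chr10:81571627-81571846): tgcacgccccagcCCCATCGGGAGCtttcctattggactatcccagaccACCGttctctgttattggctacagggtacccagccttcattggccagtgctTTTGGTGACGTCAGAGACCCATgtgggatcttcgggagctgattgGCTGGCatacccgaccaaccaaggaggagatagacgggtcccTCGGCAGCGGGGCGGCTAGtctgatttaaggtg
Gm44738 site (chr7:73618373-73618592): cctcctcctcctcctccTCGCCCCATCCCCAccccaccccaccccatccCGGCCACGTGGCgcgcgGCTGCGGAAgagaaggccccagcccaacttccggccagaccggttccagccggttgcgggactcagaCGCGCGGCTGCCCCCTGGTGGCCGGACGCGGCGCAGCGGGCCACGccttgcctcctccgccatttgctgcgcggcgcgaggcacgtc
Gm26698 site (chr12:86894488-86894707): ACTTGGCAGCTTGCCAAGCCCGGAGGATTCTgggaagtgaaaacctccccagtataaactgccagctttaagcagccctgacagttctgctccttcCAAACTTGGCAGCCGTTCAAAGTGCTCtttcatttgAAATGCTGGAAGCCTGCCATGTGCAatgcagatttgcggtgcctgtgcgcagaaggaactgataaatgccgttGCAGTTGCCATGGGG
Gm47964 site (chr9:45300482-45300701): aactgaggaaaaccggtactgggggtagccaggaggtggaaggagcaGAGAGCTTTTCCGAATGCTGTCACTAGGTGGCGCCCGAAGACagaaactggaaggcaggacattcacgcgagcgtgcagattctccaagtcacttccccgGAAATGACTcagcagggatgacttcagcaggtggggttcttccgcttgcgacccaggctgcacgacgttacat
Gm36635 site (chr12:111693944-111694163): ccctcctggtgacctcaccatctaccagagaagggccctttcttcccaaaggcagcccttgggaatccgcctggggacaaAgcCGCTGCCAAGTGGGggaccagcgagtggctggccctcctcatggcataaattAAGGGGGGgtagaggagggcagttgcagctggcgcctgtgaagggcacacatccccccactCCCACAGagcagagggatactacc
tRNA site (chr11:107012661-107012880): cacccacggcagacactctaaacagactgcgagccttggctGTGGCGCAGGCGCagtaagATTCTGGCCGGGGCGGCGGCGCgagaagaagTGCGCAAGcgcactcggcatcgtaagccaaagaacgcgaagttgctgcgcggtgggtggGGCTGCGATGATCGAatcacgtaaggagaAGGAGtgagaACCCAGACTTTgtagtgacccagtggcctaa

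In the Trappc9 site, 76 of 220 bases lay in footprints of both libraries, in 4 runs of which the longest had 33 bases. The Kcnn1 site had 108 such bases, among them all 9 bases of an EGR match at 66 to 74 and overlapping NRF1 matches at 123 to 130 and 125 to 132. The Tle2 site carried a cAMP response element, TGACGTCA, at 106 to 113, with all 8 bases inside a footprint. In the Gm44738 site, the CTCF match at 143 to 154 lay whole inside a run of 45 footprinted bases. The Gm26698 site held a full NFI palindrome at 3 to 17 and an RFX match, GTTGCCA, at 209 to 215, both covered in both libraries. Of the AP-1 match at 152 to 158 in the Gm47964 site, 5 of 7 bases were covered. The Gm36635 site lies in an enhancer of the VISTA collection and 698 bp from a RefSeq start, and 30 of its printed bases were footprinted. The tRNA site had 74 such bases in 6 runs. RefSeq places the start of its tRNA gene 95 bp from the peak midpoint, so these bases need not lie inside the gene.

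The sites were spread over the whole distance range and were most frequent just upstream of the promoter zone. Intergenic sequence 1 to 10 kb from a TSS amounts to 307 Mb on the autosomes, and it held 11.6 sites per Mb. Intergenic sequence at 10 to 50 kb held 8.61 shared peaks per Mb, and that beyond 50 kb held 4.28. Within the set there were 15.3 sites per Mb at 1 to 2 kb from the TSS and between 9.84 and 12 per Mb in each later kilobase. The upstream side carried the excess: at 1 to 2 kb there were 17.6 sites per Mb upstream and 9.44 downstream. At 9 to 10 kb the values were 10.5 and 11.6.

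**Figure D1:**
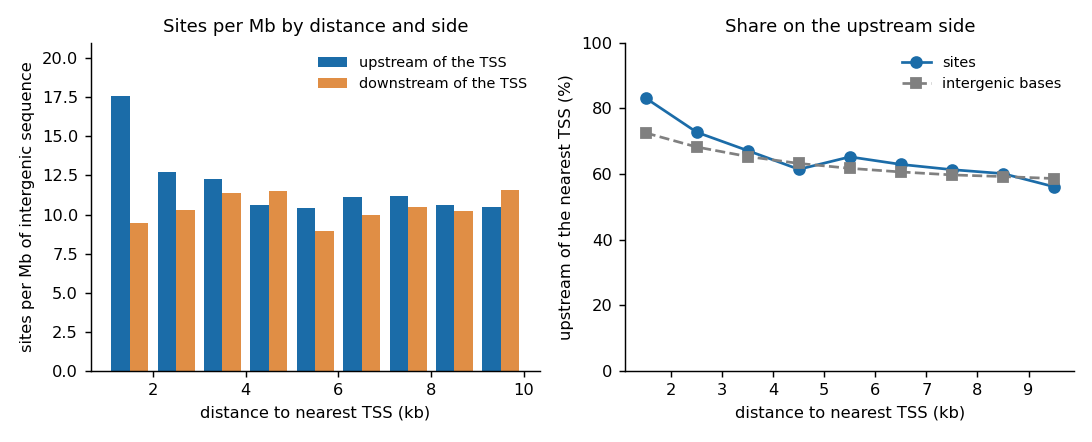
Left, sites per Mb of intergenic sequence (y axis) for each kilobase of distance from the nearest TSS (x axis), with upstream and downstream sides as separate bars; right, the percentage of sites and of intergenic bases that lie upstream. At 1 to 2 kb the upstream bar reaches 17.6 sites per Mb against 9.44 downstream, and at 9 to 10 kb the values are 10.5 and 11.6.

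In all, 2384 of 3545 sites (67.2%, 95% Wilson interval 65.7 to 68.8, counting error only) lay upstream of their nearest TSS. Since downstream sequence is mostly gene body, the available sequence is uneven too: 63.7% of the intergenic bases at this distance are upstream. The share upstream was 83.1% at 1 to 2 kb, where 72.5% of bases are upstream, and 56.1% at 9 to 10 kb, where 58.6% are. Counted from gene starts alone, without alternative transcript starts, 72.9% of the sites so selected were upstream. The share of bases upstream was not computed for that count, so 63.7% is not its baseline.

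The nearest TSS belonged to a protein-coding gene for 1690 sites (47.7%, interval 46.0 to 49.3). Long intergenic RNAs (lincRNA) followed with 616 sites and processed pseudogenes, which are retrotransposed gene copies and mostly silent, with 583. At 10 to 50 kb the protein-coding share was 39.6%, and beyond 50 kb it was 25.9%. By sequence, 36.6% of intergenic bases 1 to 10 kb from a TSS are nearest to a protein-coding start, and these bases held 15.1 sites per Mb against 9.54 for the other bases. The start itself was often closed: 1186 sites (33.5%) had a shared peak within 1 kb of their nearest TSS, beside 27.6% over all 20597 shared peaks outside promoters. This share was 55.9% where the TSS was protein-coding, 23.4% for lincRNA and 1.37% for processed pseudogenes. Sites nearest a processed pseudogene also ranked lower, with median percentiles of 37.9 and 40.4 in replicates 1 and 2, against 56.2 and 60.2 for those nearest a protein-coding TSS.

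In strength the sites stood in the middle of each library, below promoters and above remote intergenic sites. Their density had a median of 1.33 in replicate 1 (range 0.267 to 19.4) and 1.04 in replicate 2 (range 0.240 to 15.3). The median percentile was 50.4 and 54.5 in replicates 1 and 2, a mean of 52.5 ± 2.92 (SD, n = 2 libraries). Over all shared peaks it was 57.4 and 60.8. Promoter peaks had medians of 74.2 and 75.4, introns within 20 kb 46.7 and 53.7, intergenic sites at 10 to 50 kb 40.7 and 44.7, and those beyond 50 kb 25.8 and 30.5. Exons had 48.9 and 53.2, above near introns in replicate 1 and below them in replicate 2. The order of the other 5 classes named was the same in both libraries, while the interquartile range of the near sites (27.5 to 69.3 in replicate 1) overlapped that of each other class. Median peak width was 283 bp in replicate 1 and 298 bp in replicate 2.

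**Figure D2:**
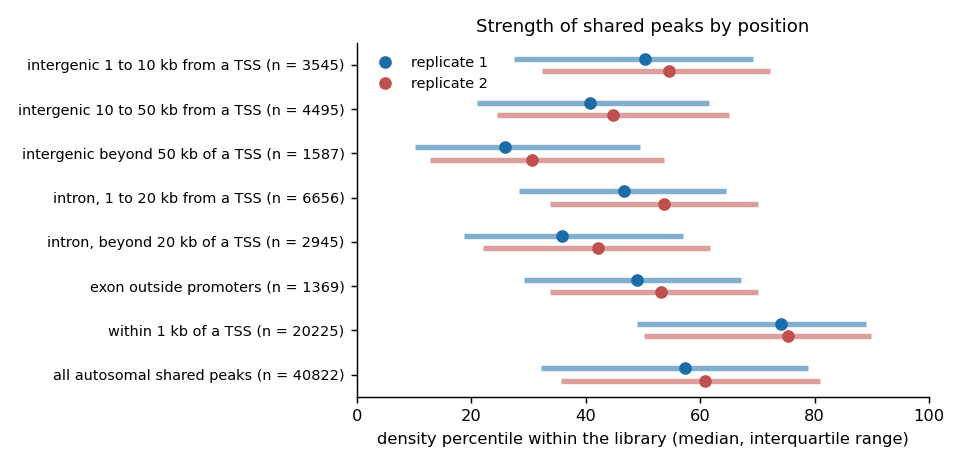
Density percentile within each library (x axis) for shared peaks of each position class (y axis), with the median as a point and the interquartile range as a bar. Near-TSS intergenic sites have medians of 50.4 and 54.5, between promoter peaks at 74.2 and 75.4 and sites beyond 50 kb at 25.8 and 30.5.

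At both limits of the rule, sites on the near side ranked above those on the far side. Intergenic shared peaks at 0.9 to 1 kb (n = 79), just outside, had median percentiles of 59.5 and 62.9, and sites at 1 to 1.1 kb (n = 93), just inside, had 57 and 57.2. At the outer limit, sites at 9 to 10 kb had 46.7 and 51.4, and peaks at 10 to 11 kb (n = 260) had 42.6 and 46.3.

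Most intergenic peaks at this distance recurred in the other library. Replicate 1 listed 4321 such peaks, of which 3545 (82.0%, interval 80.9 to 83.2) overlapped a replicate 2 peak. Replicate 2, with the longer list, had 4798, of which 3557 (74.1%, interval 72.9 to 75.4) overlapped a replicate 1 peak. The mean was 78.1% ± 5.59 (SD, n = 2 libraries), beside 80.4% ± 4.79 for all autosomal peaks. Recurrence followed strength: below the 10th percentile of the lists 59.0% of replicate 1 peaks and 39.8% of replicate 2 peaks recurred, and among the strongest 10% of the replicate 1 list all 87 did. Peaks of replicate 1 that did not recur had a median percentile of 21.8.

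All 3545 sites, like 40819 of 40822 shared peaks, lay in a hotspot, a broader zone of raised cleavage, in both libraries. At the sites, the highest −log10 FDR of that hotspot had a median of 7.34 and 7.25 in replicates 1 and 2. For promoter peaks it was 22.2 and 18.2. The hotspot around a near site was also shorter, with medians of 469 and 471 bp against 1127 and 1043 bp at promoters. In a separate processing run by the authors, 2397 sites (67.6%) overlapped a peak of the smaller deposited list in both libraries, beside 74.1% of all shared peaks. For the larger list of that run the count was 3387 (95.5%), beside 94.9% of all shared peaks.

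Footprints were shared between libraries at 2815 sites (79.4%, interval 78.0 to 80.7), beside 76.8% of all shared peaks. Single libraries gave higher shares, 91.9% in replicate 1 and 95.9% in replicate 2. On average a site held 2.68 footprints in replicate 1, 3.15 in replicate 2, and 1.66 that overlapped between them. Of 9483 replicate 1 footprints in the sites, 5882 (62.0%) overlapped one of replicate 2, with a median width of 12 bp. The share of sites with a common footprint went up with strength, from 36.0% of 189 sites with a mean percentile up to 10 to 100% of the 97 sites above 90. Weak peaks hold fewer cuts in which a gap can be seen, and the part of cut number in this trend was not tested. Footprints came from another processing run of the same libraries than the peaks.

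**Figure D3:**
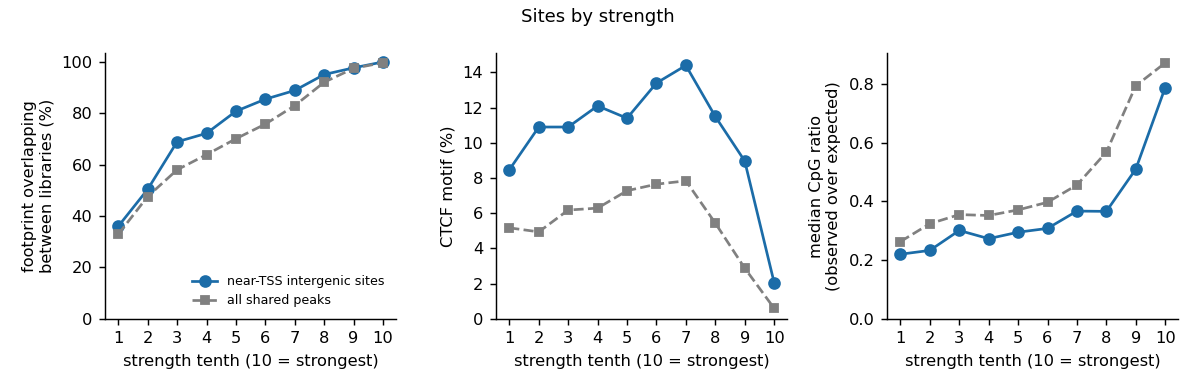
Near-TSS intergenic sites (blue) and all shared peaks (grey) by strength (x axis, 10 classes of the mean of the 2 density percentiles), for the share with a footprint overlapping between libraries (%), the share with a CTCF motif (%) and the median CpG ratio. Footprint sharing goes from 36.0% to 100%, the CTCF share is highest at 14.4% in class 7 and 2.06% in class 10, and the CpG ratio reaches 0.788 in class 10.

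The middle 150 bp of the sites had a median GC content of 54.0%, against 47.0% in windows 1 kb away on both sides and 65.3% at promoters. The CpG ratio, observed over expected from the base composition, had a median of 0.321 at the sites and 0.787 at promoters. A ratio over 0.6, a usual mark of CpG islands, was found at 651 sites (18.4%), beside 42.6% of all shared peaks. The share was 13.8% at 10 to 50 kb, 9.51% beyond 50 kb, 10.6% in introns within 20 kb and 29.7% in exons. Repeats covered 7.27% of the middle windows and 26.8% of the flanks, as marked in the reference. With strength the CpG ratio rose to a median of 0.788 in the sites above the 90th mean percentile, where 28.9% also had a RefSeq transcript start within 1 kb, against 2.65% of those up to the 10th.

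CTCF had the highest ratio of sites to flanks among the 18 of 19 motifs found in the flanks. A match, on either strand of the 150 bp window, was present at 406 sites (11.5%, interval 10.4 to 12.5), beside 5.36% of all shared peaks. In the flanks 1 kb away the share was 0.155%, a ratio of 73.8. Intergenic sites at 10 to 50 kb had 9.92%, introns within 20 kb 9.01% and promoters 1.52%. The match sat close to the peak midpoint, at a median distance of 16 bp. Among the 403 sites with exactly 1 match, 268 had every base of it inside footprints of both libraries and 51 had none. Sites with a match had a common footprint in 91.6% of cases, those without in 77.8%, and their peaks were narrower, at 254 against 289 bp in replicate 1. The share of sites with a match varied little with distance from the TSS, between 10.1% and 13.6% per kilobase.

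**Figure D4:**
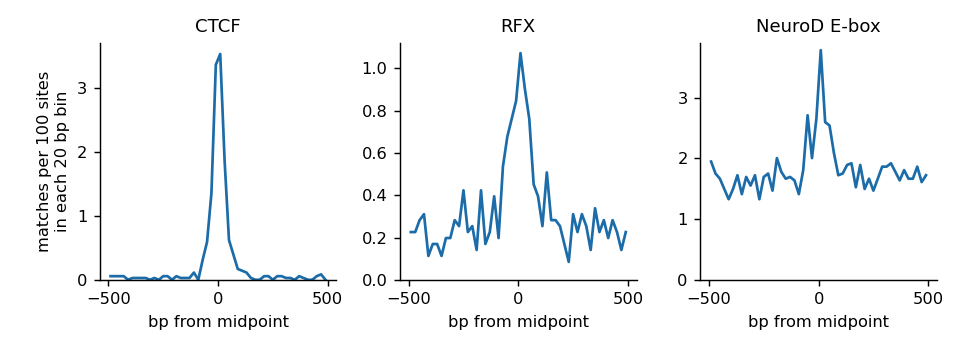
Motif matches per 100 sites in bins of 20 bp (y axis, separate scale per panel) against distance from the peak midpoint in bp (x axis) for CTCF, RFX and the NEUROD E-box. CTCF reaches 3.53 matches per 100 sites at the centre and 0.0564 at the outermost bin on the left, where the NEUROD E-box still has 1.95.

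Among motifs of neuronal regulators, the E-box read by NEUROD factors, CAGATG, occurred at 603 sites (17.0%), beside 13.1% of all shared peaks and 11.6% of flanks. Promoters had only 6.24%. The share was higher than at the sites in introns within 20 kb (19.2%) and in intergenic peaks at 10 to 50 kb (20.7%) and beyond 50 kb (22.9%). RFX, GTTGCCA, was found at 191 (5.39%), beside 4.25% of all shared peaks and 1.55% of flanks. In the same order, these intron and intergenic classes had 5.45%, 5.52% and 6.18%, and promoters 2.94%. AP-1, TGANTCA, the site of FOS and JUN dimers, was found at 205 (5.78%) against 4.06% of flanks and 3.87% of all shared peaks. For AP-1 the intron and intergenic classes had 5.45%, 5.83% and 6.11%, and promoters 2.11%. Many of these short matches lay outside the common footprints. A site counted when any match in its whole peak fell within 5 bp of a replicate 1 footprint overlapping one of replicate 2. The counts were 157 of the 603 sites with a NEUROD box (26.0%) and 75 of the 191 with an RFX match (39.3%). They were 19 of the 205 with an AP-1 match (9.27%), against 334 of the 406 with a CTCF match (82.3%). Motifs were searched on both strands and 1 window can hold several, also overlapping ones: NRF1 and SP/KLF letters can share GC-rich bases. A match shows that the letters are present, not that a protein is bound.

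CpG-rich motifs of promoters were present at lower shares than over all shared peaks. SP/KLF, GGGGCGGGG, was found at 75 sites (2.12%), beside 6.48% of all shared peaks and 11.4% of promoters. NRF1, GCNTGCGC, was found at 105 (2.96%), beside 7.66% and 12.8%. ETS, CCGGAAGT, was found at 19 (0.536%), beside 2.17% and 4.08%. The full cAMP response element TGACGTCA was rare, at 27 sites (0.762%), beside 1.39% of all shared peaks and 2.24% of promoters. Its share was lower than at the sites in flanks (0.127%) and near introns (0.691%). Of the 27 sites, 20 had the element in a common footprint, and the median percentiles of the 27 were 83.4 and 81.3. Motifs of SOX (AACAATG), homeodomain (TAATTA), T-box (TCACACCT) and TEAD (ACATTCC) proteins were less frequent in the sites than in the flanks, with ratios between 0.519 and 0.716.

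The label intergenic rests on 1 annotation. By RefSeq models of the same assembly, which include predicted transcripts, 708 sites fell inside a gene body and 398 (11.2%, interval 10.2 to 12.3) lay within 1 kb of a transcript start. Over all shared peaks these shares were 65.1% and 48.1%, and at 10 to 50 kb they were 15.3% and 6.27%. Of these starts 152 were of long noncoding RNAs, 128 of mRNAs and 98 of tRNAs. The 330 sites near such a start that overlapped no tRNA gene ranked at medians of 59.9 and 63.2, with a CpG ratio of 0.450. The 2759 sites with neither a RefSeq start nor a CTCF motif ranked at 47.3 and 53.7, with a ratio of 0.311, and 77.6% of them shared a footprint between libraries.

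Transfer RNA genes formed a compact subset. They are transcribed by RNA polymerase III from promoter elements inside the gene, and the GENCODE annotation used here has no nuclear tRNA genes. Of the sites, 68 (1.92%, interval 1.52 to 2.42) overlapped a RefSeq tRNA gene, beside 0.399% of all shared peaks. These sites held 69 of the 386 autosomal tRNA genes, or 17.9%, and all shared peaks together held 166. Chromosome 11 carried 22 of the 68 and chromosome 13 carried 15. They had median densities of 2.54 and 1.60 and median percentiles of 76.8 and 74.8, although single sites ranged from the 22.6th percentile to the 97.0th in replicate 1 and from the 5.52th to the 96.2th in replicate 2. Their CpG ratio was 0.829, and 60 of the 68 had a common footprint, 2.85 per site on average. Footprints were counted over the whole peak, not over the tRNA gene alone. The site at the arginine tRNA gene n-TRccg1 had densities of 10.2 and 5.19 and 8 common footprints, and the one at n-THgtg3 had 8.63 and 6.05, the higher value in replicate 2.

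Experimentally tested enhancers were few. RefSeq records an enhancer at 27 sites (0.762%), beside 0.634% of all shared peaks, and 26 of these come from VISTA, a collection of elements tested in transgenic mouse embryos. Forebrain activity is recorded for 5 of the elements, which held 8 sites (0.226%, beside 0.201% of all shared peaks). The other 19 sites lay in elements recorded for hindbrain, midbrain, limb, heart and other tissues. The following are examples from the forebrain elements. The strongest in both libraries was near Gm43909 in element mm1548, with densities of 8.61 and 8.48 and 6 common footprints. Element mm1606 contained the Gm36635 site printed above, with densities of 3.58 and 3.36 and 10 common footprints.

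By the mean of the 2 percentiles, every one of the 10 strongest sites had a density above 9 in both libraries, and 9 of the 10 lay upstream of their nearest TSS. The site 6442 bp upstream of Trappc9, which encodes a subunit of a vesicle tethering complex, had densities of 19.4 and 13.5 in replicates 1 and 2. A site 1005 bp downstream of the start of Gm10655 had 17.2 and 15.3. The site 2479 bp upstream of Kcnn1, the gene of a calcium-activated potassium channel, had 16.7 and 13, with 9 common footprints. Cirbp, coding for a cold-inducible RNA-binding protein, had its site at 6017 bp with 16.3 and 11.7. These densities chose the sites, so their height is no result. Many of them were close to starts that the rule did not know: RefSeq places a transcript start 46 bp from the Kcnn1 site, 132 bp from the Gm10655 site, 150 bp from the site at Cpeb4 (an RNA-binding regulator of translation, 13 and 11) and 38 bp from the site at the zinc finger gene Zfp869 (11.3 and 10.7). The sites of Fbrs (14.8 and 13.3) and Tle2, a Groucho family corepressor (12.8 and 9.61), also had a RefSeq start within 1 kb, at 393 and 853 bp. Those of Ptma, coding for prothymosin alpha (15.2 and 9.41), and the forkhead factor gene Foxo3 (13.6 and 9.44) lay at 1331 and 1013 bp, close to the inner limit of the rule. Trappc9 and Cirbp sites were more than 6 kb from any RefSeq start, and both had CpG ratios over 0.6, at 0.857 and 0.748.

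The highest number of common footprints, 10, was found at the Gm44738 and Gm36635 sites. Kcnn1, Gm38144 and Igf1r, the gene of the insulin-like growth factor receptor, each had a site with 9. The Igf1r site (chr7:67951630-67952019) had densities of 5.53 and 3.34 and a GC content of 77.3%. A neighbouring site upstream of Igf1r was the widest of the set at 754 bp, followed by sites at Gm3764 (745 bp), Tshz3 (744 bp), Gm25916 (678 bp) and Hivep2 (675 bp). Width and footprints did not go together at all of these: Hivep2 had 9 common footprints and Tshz3, with 8 footprints in replicate 1, had none in replicate 2.

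Sites gathered at some genes, where a count of sites can include adjoining pieces: 182 sites shared their replicate 2 peak with another site of the set. The 3545 sites had 2854 nearest genes, of which 510 had at least 2 sites and 40 at least 4. The small RNA gene Gm25888 led with 9 sites, and none of these was within 1 kb of a RefSeq start. Tnrc18 followed with 8, all upstream, at 1103 to 5966 bp and with densities of 1.04 to 3.49 in replicate 1 and 1.34 to 2.34 in replicate 2. Of these 8, 2 abut each other, and 1 is 21 bp long. The pseudogene Gm7760 and the lincRNA Gm43177 had 7 each. Kdm6b, which encodes a demethylase of the repressive histone mark H3K27me3, had 6 upstream sites, the strongest at 4472 bp with 8.01 and 6.15. Gm26927 and the olfactory receptor pseudogene Olfr1421-ps1 also had 6, and 3 of those at Olfr1421-ps1 overlapped tRNA genes. Id2, the gene of an inhibitor of bHLH factors, had 5 on both sides of its start, between 1.26 and 5.80 in replicate 1 and between 1.08 and 2.88 in replicate 2. Alternative starts are part of this pattern: RefSeq models put starts within 1 kb of 5 of the 8 Tnrc18 sites and of all 6 Kdm6b sites, and within 1 kb of the 3 Gm43177 sites nearest to its start, where the RefSeq gene is Ppargc1a.

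Of 20780 autosomal protein-coding genes, 1356 (6.53%) were the nearest gene of at least 1 site. Among the 11127 genes with a promoter peak the count was 938 (8.43%). Lists of marker genes were set beside these shares, as a description of lists drawn up with earlier results of these data known. Of 24 immediate early genes, which neurons switch on within minutes of activity, 12 had a site, together 23 sites: Fos, Fosb, Junb, Egr1, Egr3, Egr4, Nr4a1, Nr4a3, Arc, Ier5, Nptx2 and Btg2. All 24 also had a promoter peak. The strongest in replicate 1 lay 7818 bp upstream of the nuclear receptor gene Nr4a1 with densities of 8.36 and 4.78. Nr4a3, whose first site was stronger than that of Nr4a1 in replicate 2, had sites of 6.73 and 5.22 at 1685 bp and of 3.72 and 2.68 at 2110 bp. Egr3 had 4 upstream sites, the strongest with 6.22 and 4.60 and an EGR match in a common footprint.

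Excitatory neuron genes had a site at 8 of 16. The strongest lay 1702 bp upstream of Slc17a7, the gene of the vesicular glutamate transporter VGLUT1, with densities of 5.75 and 4.11, 8 common footprints, and CTCF and T-box matches inside such footprints. Sites at Tbr1 (1.13 and 0.745) and Neurod6 (1.13 and 0.590) were weaker. Of 13 autosomal genes of progenitors and immature neurons, 6 had 14 sites in all, the strongest upstream of Sox4 with 5.86 and 3.10. In the list of inhibitory interneurons 2 of 16 had a site, Sst and Calb2. The Sst site 8095 bp upstream of this neuropeptide gene had 2.01 and 0.985, and the one at 7459 bp had 1.33 and 1.03, so their order differed between the libraries.

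Glial genes also had near intergenic sites. Astrocyte genes had them at 3 of 15, oligodendrocyte precursor genes at 3 of 12, myelinating oligodendrocyte genes at 2 of 13 and microglial genes at 4 of 15. The site 5451 bp upstream of Mog, the gene of a myelin surface protein, had densities of 6.39 and 4.74 and a NEUROD box in a common footprint, while no shared peak lay within 1 kb of the Mog TSS nearest to it. The TSS nearest to the Slc17a7, Sst and Trem2 sites had none either, whereas that nearest to the Sox4, Ntsr2 and Olig1 sites had one. By mean percentile the leading sites of the other lists were at Ntsr2 for astrocytes (1.78 and 1.18), Olig1 for precursors (2.49 and 1.91) and Trem2 for microglia (1.57 and 0.862). In replicate 2, Slc1a2 (1.28) was above Ntsr2, and Ctss (0.972) and Cx3cr1 (0.953) were above Trem2. A single site was found for each of pan-neuronal genes (Snap25, 1 of 13), endothelial and mural cells (Slc2a1, 1 of 18), choroid plexus (Kcne2, 1 of 12) and regulators of hindbrain and spinal cord (Gbx2, 1 of 14). Housekeeping genes had a site at 4 of 12. No site had its nearest TSS among 17 forebrain regulators, 19 neurotransmitter receptor genes or 14 erythroid and liver genes. Of these, 14 forebrain regulators and 17 receptor genes had a promoter peak.

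Over the 3545 sites, density in the libraries had a Spearman correlation of 0.849, a description across sites that share library and depth. It was 0.909 over all shared peaks and 0.955 at promoters. The other classes had lower values than the sites: 0.832 in exons, 0.810 in introns within 20 kb and 0.770 in introns farther away. Intergenic peaks had 0.809 at 10 to 50 kb and 0.772 beyond 50 kb. Of the sites, 2046 (57.7%) ranked within 10 percentile points in both libraries. A higher percentile in replicate 2 was found for 2183 (61.6%), beside 58.7% of all shared peaks, and the median difference was 2.91 points. In a ranking of the 3545 sites alone, 1751 (49.4%) stood higher in replicate 2, with a median difference of -0.0564 points. The widest percentile gaps upward in replicate 2 were at Eny2 (0.524 and 1.29, percentiles 1.85 and 66.3), Cfap44 (0.631 and 1.29) and Snap25, the gene of a synaptic SNARE protein (0.824 and 1.65, percentiles 17.9 and 75.8). In the other direction stood Gm11627 (1.54 and 0.616), Adamts1 (1.32 and 0.525) and Gm5513 (1.26 and 0.493). Adamts1 had 4 footprints in replicate 1 and none in replicate 2. With 1 library on each side, these gaps cannot be told apart from the spread between samples.

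CTCF and tRNA sites leaned to replicate 1, and so did CpG-rich sites when ranked among the sites alone. Of the 406 sites with a CTCF motif, 185 (45.6%) ranked higher in replicate 2, against 63.7% of the 3139 others, with median differences of -1.15 and 3.56 points. Ranks among the 3545 sites alone give the 2 lists the same length. By these, 128 CTCF sites (31.5%) and 51.7% of the others were higher in replicate 2, with median differences of -5.15 and 0.254 points. At 10 to 50 kb 43.3% of CTCF sites and 60.8% of the others ranked higher in replicate 2. In introns 1 to 20 kb from a TSS the shares were 52.7% and 67.7%, and in exons 52.1% and 63.5%. At tRNA genes 23 of 68 sites (33.8%) ranked higher in replicate 2, or 12 (17.6%) among the sites alone. The lean was not particular to these genes. The 651 sites with a CpG ratio over 0.6 include 57 of the tRNA sites. Of the 651, 52.7% ranked higher in replicate 2, or 36.3% among the sites alone. For the 2894 other sites the shares were 63.6% and 52.3%. Sites within 1 kb of a RefSeq start had 58.8% and 41.5%. AP-1 sites leaned the other way, with 151 of 205 (73.7%) higher in replicate 2 and a median difference of 7.72 points. Among the sites alone these were 131 (63.9%) and 4.56 points. The ranking among the sites alone was added after the data were seen. Replicate 2 is the deeper library, and the part of depth in these leans was not tested.

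**Figure D5:**
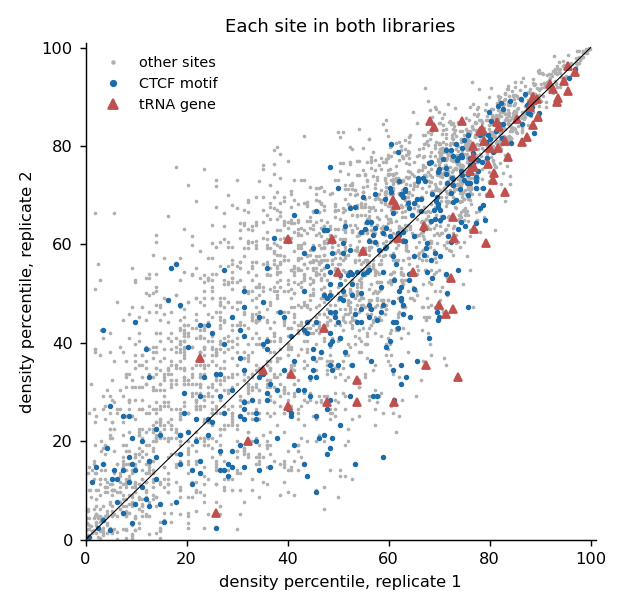
Density percentile of each site in replicate 1 (x axis) and replicate 2 (y axis), with CTCF motif sites in blue, tRNA sites as red triangles and the line of equal rank. Of the 68 tRNA sites 23 rank higher in replicate 2, and of the CTCF sites 45.6% do, against 63.7% of the others.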

How the data were processed

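DNase-seq of 2 libraries, the replicates of 1 group, was used. The authors deposited peaks whose density, a cleavage signal scaled to read depth, is named in the file headers. Hotspots carry a highest −log10 FDR, per the file headers. Footprints deposited by the authors carry 1 p-value threshold, 0.01, in each line, and per-base FDR values below 0.05 were deposited with them. The sources used here name no aligner, peak caller or version. Peaks and hotspots came from a run on reads, and footprints from a run on filtered alignments, per the deposited file lists. Libraries were processed separately on mm10, and replicates were not pooled.

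Peaks were overlapped (at least 1 bp) and classified against GENCODE release 21. Percentiles rank density within each autosomal list. Composition and motifs used 150 bp windows around midpoints of the GRCm38 sequence, with flanks shifted by 1 kb. Python 3.11.15, numpy 2.4.6, pandas 2.3.3, scipy 1.17.1 and matplotlib 3.10.9 were used, and overlap and motif functions were tested on simulated data. All densities were whole multiples of the library's step (tolerance 0.05 steps), which gives the relative depth only. Wilson intervals (95%) cover counting error only. With 1 group no test was made.

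Sites were named by rule: the 10 strongest, the 5 with most common footprints, all at the 8 genes with most sites, the strongest per gene list and per motif (some of these are not reported here), the 3 with the widest library difference each way, and the 5 widest. Other gene list, tRNA and enhancer sites were chosen after their values were seen. Members and lists were chosen with earlier results of these data known. Alternatives covered lists, overlap, annotation, distance, libraries and windows; those on RefSeq starts, on sites found in the other run and on ranks among the sites were chosen after seeing the data.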

Additional observations from a re-analysis of the deposited data

How the results depend on the processing

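Of 106 recomputed values 72 stayed within a set limit and 34 moved beyond it. The limit was the spread or counting interval, except for the number of sites. There it was a fixed fold change, wide enough to hold 2464 and 4807 sites against 3545. For GC, the medians with the peaks of either replicate as regions were both 54.0%, so any change in GC counted as moved. Requiring FDR 0.0001 or below in both peaks left 1914 sites, with median percentile 65.7, Spearman correlation 0.878, common footprints at 90.8% and GC 55.3%. Extending the rule to 20 kb gave 5579 sites. With protein-coding genes only, the percentile was 58.5, the correlation 0.859, footprints 80.9%, the upstream share 75.4%, GC 55.3% and the protein-coding share 100% by construction. Gene starts only gave 72.9% upstream. Lists of equal size gave a correlation of 0.832, footprints at 81.3% and GC 54.7%. The smaller list of the other run gave 69.6% recurrence, a correlation of 0.869, hotspots at 99%, footprints at 84.7%, a protein-coding share of 45.3% and GC 54.7%. Common footprints were at 80.7% with 50% reciprocal peak overlap, 67.2% with the looser list and 67.3% with 50% reciprocal footprint overlap. Whole peaks had a GC of 52.9%. Sites also found in the other run, a choice made after seeing the data, had a percentile of 60.8 and footprints at 88.4%. Except by construction, the cause was not tested.

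From single libraries, without replicate 1 or without replicate 2, the percentile was 43.9 to 45.2, footprints of that library 89.3% to 94.2%, GC 53.3% to 54.0% and the CTCF share 9.71% (replicate 2 alone) to 11.6% (replicate 1 alone). The correlation needs both libraries and has no such value. No paired analysis was possible because there is only 1 group. The set has 2 libraries of unequal depth, 1 annotation decides what is intergenic, and weak sites limit what footprints can show.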

Other observations

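The sites were unevenly spread over chromosomes. Chromosome 11 had 301 sites, or 19.3 per Mb of intergenic sequence at this distance, the highest value of the autosomes, and chromosome 7 had the lowest at 8.70 per Mb. Of the sites, 271 (7.64%) touched another peak of replicate 1, beside 12.8% of all shared peaks, and 783 sites (22.1%) had another shared peak within 1 kb, beside 36.5%. Of the touching sites 72.7% ranked higher in replicate 2, or 62.7% when ranked among the sites alone. Each site takes the replicate 2 value of the strongest peak it overlaps there, so adjoining pieces can carry the same value. The part of this rule in the share was not tested. Among the 403 sites with exactly 1 CTCF match, the match was on the strand of the nearest gene at 227 (56.3%).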
